A study of Mus musculus with 39 samples.

Results

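Trp53, which encodes the tumour suppressor p53, and 9 genes that p53 is known to switch on (Cdkn1a, Mdm2, Bbc3, Ccng1, Trp53inp1, Sesn2, Zmat3, Eda2r and Phlda3) were followed across 39 mouse mammary tumours. The 10 genes were taken by symbol from the deposited table of raw counts, which holds 53715 genes, and all 10 passed the low-count filter in every comparison. RNAseq was run on 1 library per tumour, made from a bulk piece of an adenocarcinoma of no special type from an adult female mouse. Every mouse was BlgCre;Brca1flox/flox;p53 +/-, and the cohorts differed in Lyn: 12 tumours were Lynwt/wt (9 mice), 14 were Lynfl/wt (10 mice) and 13 were Lynfl/fl (9 mice). Cre was driven by the beta-lactoglobulin promoter, which is active in the mammary epithelium, so the floxed Brca1 and Lyn alleles were open to recombination there and not in the other cells of the tumour. The loss of 1 Trp53 copy was in the germline and was therefore carried by every cell of every mouse. No tumour with both Trp53 copies intact was analysed here, and the counts do not separate the alleles, so whether a tumour still held its intact copy was not tested.

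p53 is a transcription factor that is kept low in unstressed cells, mainly because its target Mdm2, a ubiquitin ligase, marks the p53 protein for degradation. After DNA damage or oncogene activity the protein is stabilised and binds short paired motifs near its targets, whose products halt the cell cycle, repair DNA, restrain growth or kill the cell. Because this control acts largely on the protein, the level of Trp53 RNA is not in itself a measure of p53 activity, and several of the targets also respond to other stress pathways.

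To show where the factor could bind, promoter windows of 300 bases (250 before and 50 after each annotated gene start, RefSeq, GRCm38.p6) were searched on both strands for exact copies of the 10-base p53 half-site. Of the members, 8 were matched by symbol, with 11 windows in all, and 4 held an exact half-site. By comparison, 8.36% of all 32851 windows held one, which is a share of windows and not of genes. The Cdkn1a promoter held a pair of exact half-sites with 12 bases between them, which 0.0731% of all windows had at a spacing of 0 to 13 bases, and the second of the pair was followed directly by a copy with 1 mismatch. The Ccng1 promoter held an exact half-site joined to a copy with 1 mismatch, and such an adjacent pair with at most 1 mismatch was found in 0.067% of all windows. Mdm2 and Trp53 itself each had a single half-site. The sites read as follows, 5′ to 3′ on the strand of the gene with 30 bases on either side, and capitals mark the half-sites, the adjoining copies with a mismatch included. They begin 73 (Cdkn1a), 195 (Ccng1), 186 (Mdm2) and 75 (Trp53) bases before the annotated start, for Cdkn1a the upstream one of 2.
Cdkn1a, chr17:29090876-29090977, plus strand: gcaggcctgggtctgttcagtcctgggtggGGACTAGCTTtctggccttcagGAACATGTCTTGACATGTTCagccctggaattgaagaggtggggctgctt
Ccng1, chr11:40755432-40755511, minus strand: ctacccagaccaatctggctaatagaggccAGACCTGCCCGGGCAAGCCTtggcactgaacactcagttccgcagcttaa
Mdm2, chr10:117710905-117710974, minus strand: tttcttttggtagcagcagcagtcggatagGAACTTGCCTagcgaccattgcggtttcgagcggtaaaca
Trp53, chr11:69580254-69580323, plus strand: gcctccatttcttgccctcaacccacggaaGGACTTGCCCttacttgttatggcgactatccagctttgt
The windows of Bbc3 (3), Sesn2, Eda2r and Phlda3 and the other window of Cdkn1a held no exact copy, which says only that these letters were not in these windows.

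The 39 tumours came from 28 mice, and 9 mice gave more than 1 tumour (20 tumours). Total counts ranged from 50490044 to 83122719 per library. Normalised counts below are counts scaled by TMM to the mean library size. Lyn itself, the floxed gene, had a median normalised count of 3128 in Lynwt/wt (1800 to 11468), 3008 in Lynfl/wt (1647 to 5338) and 1733 in Lynfl/fl tumours (672 to 5643), so the genotypes overlapped. The study also grouped the tumours on these same libraries, as the 13 Lyn-high and 13 Lyn-low tumours by Lyn expression, and as PCA group 3/4 (10 tumours) and PCA group 1/2 (29 tumours) by a principal component analysis of all genes. Of the Lyn-high tumours, 6 were also in PCA group 3/4, and 0 of the Lyn-low tumours were. Database IDs begin with 20 (18 tumours) or 21 (21 tumours). Those beginning 20 were 7 of the 10 PCA group 3/4 and 11 of the 29 PCA group 1/2 tumours. They were also 9 of the 13 Lyn-high and 4 of the 13 Lyn-low tumours, so neither grouping was balanced for the ID. Luminal markers (8 genes such as Krt8 and Epcam) were present in every tumour, with a summed normalised count from 106499 to 807339, although Krt19 had no count in 1 tumour. Skeletal muscle markers (Acta1, Ckm, Myh4 and Mylpf) ran from 29.8 to 174602. They were highest in Lynwt/wt tumours 40 (174602) and 39 (116213) and Lynfl/wt tumour 7 (93065). Tumour 40 also had the highest Ccng1 and tumour 39 the highest Eda2r, and the part of muscle in these values was not tested.

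Trp53 (chr11:69580359-69591873, GRCm38, plus strand) was expressed at an even level in the 39 tumours. Its normalised count was 623 in the lowest tumour (Lynfl/fl tumour 56), 1349 at the median and 2111 in the highest (Lynfl/fl tumour 13), a 3.39-fold range. The SD of its log2 CPM (counts scaled to a fixed library total) was 0.40, and only 10.3% of the 18998 genes kept had a smaller one (the median gene had 0.80). Transcripts of the processed pseudogene Trp53-ps on chromosome 17 reached a raw count of at most 3.

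Mdm2 (chr10:117688875-117710758, minus strand), the ligase that closes the p53 feedback loop, was the steadiest member. Its normalised count was 2035 in the lowest tumour, 2921 at the median and 5447 in the highest, a 2.68-fold range, and 2.06% of genes had a smaller SD of log2 counts (0.33). Zmat3 (chr3:32334792-32366014, minus strand), a zinc finger protein that binds RNA, had a 3.34-fold range, from 591 to 1972 with a median of 1332. Of all genes kept, 20.5% had a smaller SD than Zmat3. Among the 1000 genes of most similar mean level the shares were 10.7% for Trp53, 4.6% for Mdm2 and 22.4% for Zmat3. These 2 targets and Trp53 itself therefore varied less than most genes of these tumours.

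The arrest and death genes were spread more widely. Cdkn1a (chr17:29090976-29100727, plus strand), which encodes the cyclin-dependent kinase inhibitor p21, ran from 597 (Lynwt/wt tumour 60) through a median of 2191 to 10621 (Lynwt/wt tumour 21). Bbc3 (chr7:16308393-16318205, plus strand), which encodes the BH3-only death protein PUMA, ran from 138 (Lynwt/wt tumour 41) through 926 to 3181 (Lynwt/wt tumour 59). Ccng1 (chr11:40748552-40755311, minus strand), which encodes cyclin G1, ran from 1299 through 2525 to 7165 (Lynwt/wt tumour 40). The range was 17.8-fold for Cdkn1a, 23.1-fold for Bbc3 and 5.52-fold for Ccng1. For Cdkn1a, 90.1% of the 1000 genes of most similar mean level had a smaller SD, against 62.1% for Bbc3 and 65.2% for Ccng1. Of all genes kept, the shares were 63.5%, 49.2% and 35.7%, so Bbc3 and Ccng1 were wide only beside genes of similar level. An unnamed transcript model on the opposite strand (AC167363.2) overlaps exons of Cdkn1a in Gencode vM21, and whether the counting used strand is not given in the sources used here.

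Among the stress and survival genes, Trp53inp1 and Phlda3 were the most variable of the well-expressed members. Trp53inp1 (chr4:11156431-11174379, plus strand), which encodes a stress-induced partner of p53, ran from 572 (Lynwt/wt tumour 41) through 2609 to 16543 (Lynfl/wt tumour 49), a 28.9-fold range. Phlda3 (chr1:135766119-135769136, plus strand), whose product restrains the survival kinase Akt, ran from 261 (Lynfl/fl tumour 54) through 2752 to 16747 (Lynwt/wt tumour 4), a 64.3-fold range. Their SDs of log2 counts were 1.13 and 1.35, larger than those of 92.1% and 94.9% of genes of similar level and of 65.4% and 72.6% of all genes kept. Sesn2 (chr4:132492032-132510501, minus strand), a sestrin that restrains the growth kinase mTORC1, varied 4.55-fold, from 508 through 1096 to 2310. A smaller SD was found for 37% of genes of similar level and 29.4% of all genes kept, so it too varied less than most.

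Eda2r (chrX:97333840-97377216, minus strand), the receptor for the ectodysplasin isoform EDA-A2, was the lowest member by far. Its normalised count was 0 in the lowest tumours, 34.7 at the median and 359 in the highest (Lynwt/wt tumour 39), and 4 tumours, all in PCA group 1/2, had no count. The SD of its log2 counts, 2.37, was larger than that of 93.0% of genes, but it lies in the range where few counts set the value. Per kilobase of merged exons, the median level of the members ran from 5.89 (Eda2r) and 116 (Zmat3) through 316 (Sesn2), 333 (Trp53), 403 (Trp53inp1), 436 (Bbc3), 575 (Mdm2), 617 (Cdkn1a) and 719 (Ccng1) to 1765 (Phlda3) normalised counts. Each member in this order overlapped the next across tumours, Eda2r and Zmat3 only narrowly (highest Eda2r 60.9 and lowest Zmat3 51.7 per kilobase) and the others widely, apart from Zmat3 and Sesn2 (172 and 146).

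**Figure D1:**
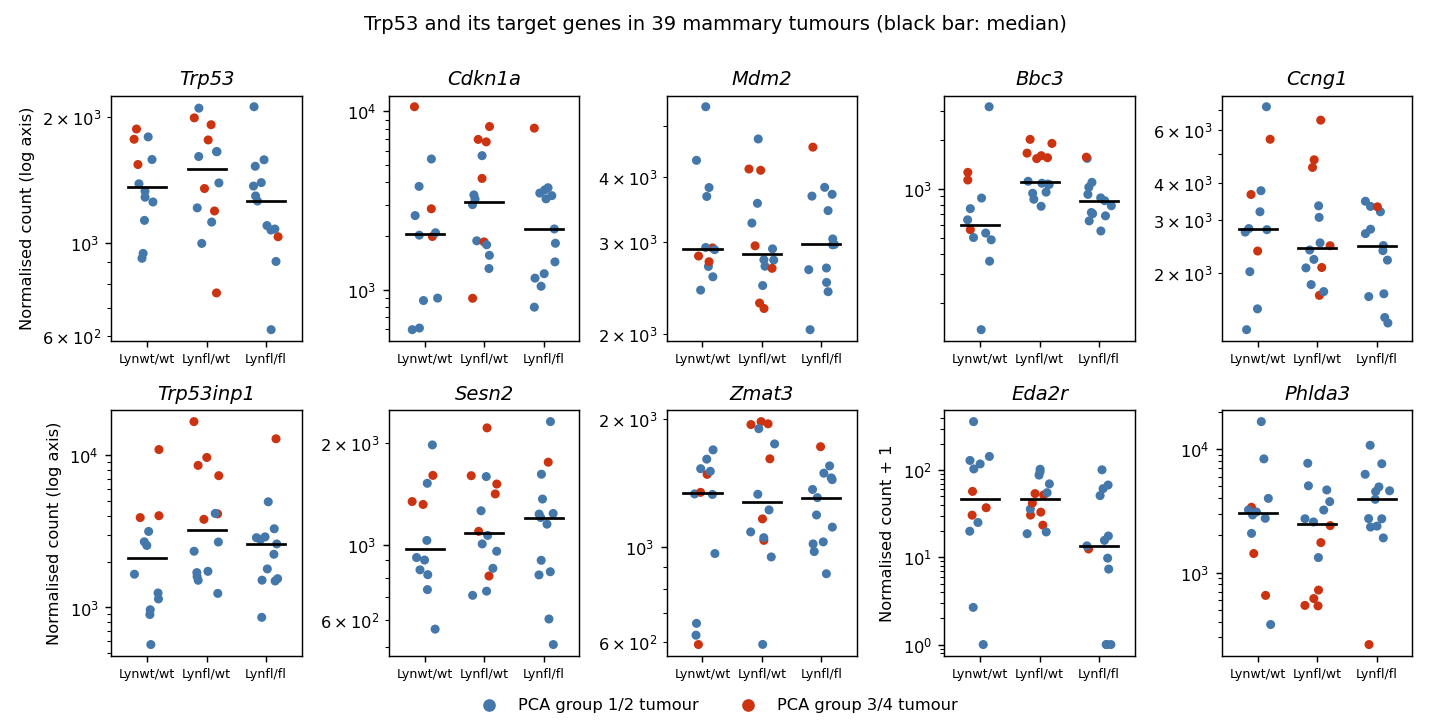
Normalised count of each member (log axis, with 1 added for Eda2r only) in the Lynwt/wt (12), Lynfl/wt (14) and Lynfl/fl (13) tumours, 1 point per tumour, coloured by PCA group, with the median as a black bar. Trp53 and Mdm2 lie in a narrow band, Trp53inp1 is high and Phlda3 low in most PCA group 3/4 tumours, and the genotypes overlap for every member.

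How far tumours of the same mouse differed from each other depended on the member, and an SD between mice was not computed. Over the 20 tumours of the 9 mice with several, the SD of log2 counts within a mouse was 0.44 for Trp53, 0.42 for Mdm2, 1.20 for Cdkn1a, 1.24 for Trp53inp1 and 1.69 for Phlda3, each somewhat above the SD over all 39 tumours. For Bbc3 (0.50), Zmat3 (0.43) and Eda2r (1.48) it was below the SD over all 39 tumours (0.79, 0.47 and 2.37). The 10 PCA group 3/4 tumours came from 8 mice, with Lynfl/wt tumours 8, 9 and 19 from 1 mouse. The main tests below took each tumour as a separate sample. In all, 4 mice gave tumours of both PCA groups. Lynfl/fl tumours 54 (PCA group 3/4) and 55 (PCA group 1/2) came from 1 mouse and had normalised counts of 8058 and 798 for Cdkn1a. Trp53inp1 was at 12762 and 1492 in the same pair, and Phlda3 at 261 and 10766. In the pair of Lynfl/wt tumours 49 (PCA group 3/4) and 63 (PCA group 1/2), Trp53inp1 was at 16543 and 1508, and Phlda3 at 615 and 4674. In the third mouse, Lynfl/wt tumours 30 (PCA group 3/4) and 31 (PCA group 1/2) had 9627 and 2338 for Trp53inp1, and 541 and 5053 for Phlda3. The fourth mouse gave Lynwt/wt tumour 3 (PCA group 3/4), with Trp53inp1 at 3885, beside tumours 2 and 4 (PCA group 1/2) at 1652 and 966. Its Phlda3 was at 3382 in tumour 3, between the 2077 of tumour 2 and the 16747 of tumour 4. Trp53inp1 was thus higher in the PCA group 3/4 tumour within all 4 mice, whereas Phlda3 was lower within 3 of them and in between in the other. Of the Cdkn1a values, that of tumour 3 (2843) also lay between those of tumours 2 and 4 (897 and 3796).

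No member passed the test by Lyn genotype. Among Lynfl/fl and Lynwt/wt tumours, edgeR's quasi-likelihood test called 0 of 10 members at an adjusted p under 0.05, where it called 0.0368% of the 18998 genes tested. Of the members, 1 was below an unadjusted p of 0.05 (11.5% of all genes were), and DESeq2's Wald test also called 0. Between Lynfl/wt and Lynwt/wt tumours 0 members were called (0.0158% of genes), 0 by DESeq2 and 0 at an unadjusted p under 0.05 (11.2% of genes). Between Lynfl/fl and Lynfl/wt tumours 0 were called (0% of genes), 0 by DESeq2 and 0 at an unadjusted p under 0.05 (7.02% of genes). The median log2 fold change of the members was -0.01, 0.08 and -0.24 in the 3 comparisons, beside -0.05, -0.04 and -0.02 over all genes tested.

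Trp53 had a median normalised count of 1357 in Lynwt/wt (920 to 1869), 1499 in Lynfl/wt (761 to 2095) and 1259 in Lynfl/fl tumours (623 to 2111), and the cohorts overlapped over most of their range. Its log2 difference was -0.15 (SE 0.16, edgeR adjusted p = 0.775) for Lynfl/fl and 0.08 (SE 0.16, adjusted p = 0.910) for Lynfl/wt against Lynwt/wt. The member with the smallest unadjusted p was Eda2r, at 46.0 (0 to 359) in Lynwt/wt and 12.5 (0 to 99.8) in Lynfl/fl tumours, with 9 of 13 Lynfl/fl tumours below the Lynwt/wt median. The log2 difference was -1.66 (SE 0.71) and did not pass the correction (edgeR p = 0.0248, adjusted p = 0.352). Bbc3 was at 605 (138 to 3181) in Lynwt/wt and 1098 (783 to 2009) in Lynfl/wt tumours, with 14 of 14 Lynfl/wt tumours above the Lynwt/wt median but inside its range. That difference of 0.57 (SE 0.28) did not pass either (edgeR p = 0.0514, adjusted p = 0.453). PCA group, for which the cohorts were not balanced, was not in the model.

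Between the PCA groups, 4 of 10 members passed the test and they did not all go the same way. Cdkn1a, Bbc3 and Trp53inp1 were higher and Phlda3 was lower in PCA group 3/4 tumours. In this comparison 22.6% of the 19453 genes tested were called, 12.2% higher and 10.5% lower, so 4 of 10 is to be read against a broad background. The groups were cut by the study from the expression of all genes in the same libraries, so these p-values describe the groups and are not independent evidence of a difference. Members had a median log2 fold change of 0.36, beside -0.05 over all genes, and 6 were below an unadjusted p of 0.05 (34.2% of all genes were). With the mouse as a block, an alternative chosen after seeing the data that compares the groups within the 4 mice of both (9 tumours, 10 residual degrees of freedom in the fit of all 39), 1 of 10 members was called, beside 1.55% of genes.

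Trp53inp1 showed the widest gap. Its normalised counts in the 10 PCA group 3/4 tumours were 3784 at the lowest, 7928 at the median and 16543 at the highest, beside 572, 1726 and 4932 in the 29 PCA group 1/2 tumours. All 10 lay above the PCA group 1/2 median and 6 above its highest tumour. The log2 fold change was 1.96 (SE 0.24, edgeR adjusted p = 5.4e-08). Leaving out each tumour in turn, it stayed between 1.78 and 2.04 and was called in 39 of 39 fits. Within mice it was 2.48 (SE 0.41, edgeR adjusted p = 0.0146).

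Phlda3 went the other way. It was at 261, 686 and 3382 in PCA group 3/4 and at 379, 3216 and 16747 in PCA group 1/2 tumours (lowest, median and highest). In all, 9 of 10 PCA group 3/4 tumours were below the PCA group 1/2 median, the exception being Lynwt/wt tumour 3 at 3382, while the ranges overlapped. The log2 fold change was -1.84 (SE 0.41, edgeR adjusted p = 8.23e-04), and it was called in 39 of 39 fits without 1 tumour. With the mouse as a block the call was lost, at -2.96 (SE 0.70, edgeR adjusted p = 0.0531).

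Cdkn1a was at 895, 5477 and 10621 in PCA group 3/4 and at 597, 2022 and 5646 in PCA group 1/2 tumours. It was split within PCA group 3/4: 5 tumours were above every PCA group 1/2 tumour, and 3 were below the PCA group 1/2 median. The log2 fold change was 1.17 (SE 0.31, edgeR adjusted p = 0.00510). For Bbc3 the values were 563, 1558 and 2009 against 138, 847 and 3181, with 9 of 10 tumours above the PCA group 1/2 median but 0 above its highest. Its log2 fold change was 0.74 (SE 0.24, edgeR adjusted p = 0.0205), and without Lynfl/wt tumour 49 the call was lost (0.67, adjusted p = 0.0527). With the mouse as a block neither gene was called, Cdkn1a at 1.23 (edgeR adjusted p = 0.419) and Bbc3 at 0.48 (adjusted p = 0.545).

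The other 6 members did not pass. Ccng1 had a log2 fold change of 0.51 (SE 0.20, edgeR adjusted p = 0.0621) and Sesn2 of 0.45 (SE 0.18, adjusted p = 0.0673), both close to the threshold. Ccng1 passed without Lynwt/wt tumour 21 or 40 or Lynfl/wt tumour 9, 19 or 30 (0.56 to 0.60), and Sesn2 without Lynwt/wt tumour 4 or 59, Lynfl/wt tumour 8 or Lynfl/fl tumour 15 (0.48 to 0.52). Trp53 was at 761, 1649 and 1986 in PCA group 3/4 against 623, 1295 and 2111, and its log2 difference of 0.20 (SE 0.15, edgeR adjusted p = 0.385) was within the spread of the tumours. Mdm2 had medians of 2869 and 2926 and a log2 difference of -0.0027 (95% interval -0.25 to 0.25, edgeR adjusted p = 0.991). Zmat3 differed by 0.26 (adjusted p = 0.264) and Eda2r by -0.70 (adjusted p = 0.511).

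In the Lyn-high tumours 3 of 10 members passed against the Lyn-low tumours, Trp53 and Trp53inp1 higher and Phlda3 lower. Of the 17709 genes tested 7.65% were called, 6.58% higher and 1.07% lower. The members' median log2 fold change was 0.47, beside 0.03 over all genes, and 5 members were below an unadjusted p of 0.05 (20.6% of all genes were). This comparison shares 6 of its Lyn-high tumours with PCA group 3/4. With the mouse as a block, which rests on the 2 mice of both groups (5 tumours, 5 residual degrees of freedom), 0 members and 0% of genes were called.

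Phlda3 was the firmest of the 3. It was at 379, 1749 and 3759 in the 13 Lyn-high and at 2077, 3993 and 16747 in the 13 Lyn-low tumours. All 13 Lyn-high tumours were below the Lyn-low median and 8 below its lowest tumour. The log2 fold change was -1.42 (SE 0.38, edgeR adjusted p = 0.0176), and it was called in 26 of 26 fits without 1 tumour. With the mouse as a block it was -0.87 (SE 0.88, edgeR adjusted p = 0.844).

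Trp53 itself was at 1133, 1651 and 2111 in Lyn-high and at 623, 1253 and 1607 in Lyn-low tumours, with 7 of 13 Lyn-high tumours above the highest Lyn-low tumour. Its log2 fold change of 0.48 (SE 0.15) was just inside the threshold (edgeR adjusted p = 0.0479). Trp53inp1 was at 572, 3152 and 10845 against 899, 1597 and 4932, a log2 fold change of 1.09 (SE 0.34, edgeR adjusted p = 0.0490). Neither call was stable: leaving out 1 tumour ended the call of Trp53 in 23 of 26 fits (0.39 to 0.49) and that of Trp53inp1 in 22 of 26 fits (0.85 to 1.25). The calls remained without Lynwt/wt tumour 41 or 59 or Lynfl/wt tumour 29 for Trp53, and without Lynwt/wt tumour 41, Lynfl/wt tumour 6 or 7 or Lynfl/fl tumour 38 for Trp53inp1. With the mouse as a block, Trp53 was at 0.98 (SE 0.39, edgeR adjusted p = 0.443) and Trp53inp1 at 1.06 (SE 0.57, adjusted p = 0.624). Trp53 also differed by database ID, with a median of 1573 (905 to 2111) for IDs beginning 20 and 1193 (623 to 1790) for those beginning 21. IDs beginning 20 were more frequent in the Lyn-high group. With the first part of the database ID in the model, adjusted p rose to 0.242 for Trp53 and 0.274 for Trp53inp1, while Phlda3 was still called (-1.44, adjusted p = 0.0409). Among tumours with IDs beginning 20, a subset chosen after seeing the data, Trp53inp1 differed by 1.82 (edgeR adjusted p = 0.0919), and among those beginning 21 by 0.03 (adjusted p = 0.996). The difference between the ID sets did not pass for any member (edgeR interaction, lowest adjusted p = 0.635 for Trp53inp1 in the Lyn comparison and 0.545 for Trp53 in the PCA comparison, where 0% and 0.0206% of genes passed).

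**Figure D2:**
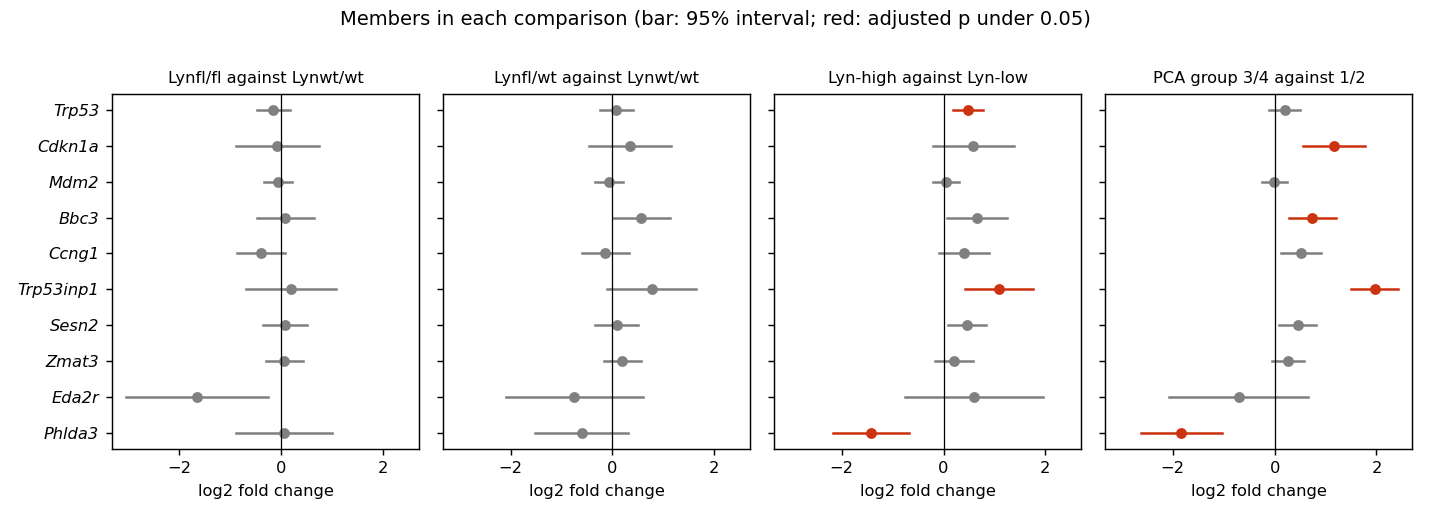
Log2 fold change of each member in 4 comparisons, from edgeR, with its 95% interval as a bar; red marks an adjusted p under 0.05 over all genes tested. No member is red for genotype, Trp53, Trp53inp1 and Phlda3 are for Lyn-high against Lyn-low, and Cdkn1a, Bbc3, Trp53inp1 and Phlda3 are for PCA group 3/4 against 1/2.

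Macrophage content moved with both of these groupings. All 6 macrophage markers (Csf1r, Adgre1, C1qa, C1qb, Lyz2 and Cd68) passed as higher in Lyn-high and in PCA group 3/4 tumours. Their summed normalised count was 53908 to 479123 in Lyn-high and 21869 to 97510 in Lyn-low tumours, and 118104 to 479123 in PCA group 3/4 and 21869 to 187171 in PCA group 1/2 tumours. Of the 5 T cell markers, 5 passed as higher in Lyn-high and 3 in PCA group 3/4 tumours. B cell markers also moved: all 4 of the 5 that could be tested passed as higher in Lyn-high tumours, with a summed normalised count from 42.5 through a median of 310 to 4558, beside 20.4, 33.8 and 96.6 in Lyn-low tumours. By PCA group their medians were 277 (36.1 to 1830) in 3/4 and 67.6 (8.10 to 4558) in 1/2, and 0 of 5 passed. Of the 8 luminal markers, 0 were called between Lyn-high and Lyn-low tumours, and 2 were higher and 1 lower in PCA group 3/4 tumours. In bulk tissue, more cells of a type and more RNA per cell cannot be told apart.

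With the summed macrophage level added to the model, an alternative chosen after seeing the data, Trp53inp1 still differed between PCA groups (1.96, edgeR adjusted p = 1.6e-04) and so did Phlda3 (-1.90, adjusted p = 0.0230). Cdkn1a (0.88, adjusted p = 0.254) and Bbc3 (0.67, adjusted p = 0.178) did not pass. In the same model 0 of 10 members passed between Lyn-high and Lyn-low tumours. The share of all genes called with this covariate was not computed, so lost calls are not read as particular to the members. Phlda3 was then at -1.74 (adjusted p = 0.517), Trp53 at 0.24 (adjusted p = 0.964) and Trp53inp1 at -0.06 (adjusted p = 0.998). Over the 39 tumours, the log2 macrophage level had a Pearson r of 0.57 with Ccng1, 0.52 with Trp53inp1, 0.47 with Trp53, 0.41 with Cdkn1a and -0.42 with Phlda3. Phlda3 had an r of -0.50 with the T cell and 0.45 with the basal markers. Ccng1 also followed the T cell (0.42) and B cell markers (0.41). Eda2r instead followed the fibroblast markers (r of 0.74) and the endothelial markers (0.58), and Cdkn1a also followed the luminal markers (0.47). The part of these cells in the members' differences was not tested further.

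Over all 39 tumours, Trp53 RNA showed little co-variation with its targets. The Pearson r of log2 CPM between Trp53 and the 9 targets ran from -0.14 (Zmat3) to 0.19 (Bbc3), and 0 of the 9 had a permutation p under 0.05 (100000 resamples, two-sided). In edgeR fits with Trp53 as the covariate, 0 targets passed, beside 1.18% of genes that passed as positive and 0.295% as negative. The values were less even in subsets, which are small (10 to 29 tumours or mice). Of 45 values (9 targets in 5 subsets), only 3 had an unadjusted permutation p under 0.05. The share over all genes was not computed. Within the 10 PCA group 3/4 tumours r was -0.74 with Trp53inp1 (rho = -0.67, permutation p = 0.0133), -0.62 with Zmat3 (permutation p = 0.0562) and 0.60 with Phlda3 (permutation p = 0.0634), whereas within PCA group 1/2 the 9 values ran from -0.13 to 0.24. For IDs beginning 20, r with Phlda3 was -0.53 (permutation p = 0.0234), and for those beginning 21 it was 0.30 (permutation p = 0.181). With 1 mean per mouse, r with Bbc3 was 0.39 (permutation p = 0.0389). The signs differed between subsets for Trp53inp1 and Phlda3, but with so few unadjusted values below the cut this is not read as a difference between the subsets.

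The targets did not move as 1 block either. Of the 36 target pairs, 2 had an r of at least 0.5 and 1 of -0.5 or less, and among all pairs of genes kept these shares were 1.21% and 0.737%. The median r was 0.11, and 23 pairs were positive and 13 negative. An unadjusted permutation p under 0.05 was reached by 10 pairs. The share of all gene pairs below that p was not computed, so this count has no background. In edgeR covariate fits adjusted over all genes, 4 pairs passed whichever gene was the covariate, and all 4 contained Trp53inp1. With Trp53inp1 as the covariate 10% of all genes passed as positive and 8.09% as negative, so its pairs stand on the broadest background of the set. The shares passing as positive were 6.28% for Phlda3, 6.13% for Bbc3, 5.21% for Cdkn1a, 2.98% for Ccng1, 2.27% for Eda2r, 1.45% for Sesn2, 0.442% for Mdm2 and 0.216% for Zmat3. Those passing as negative were 9.34% for Phlda3, 4.99% for Bbc3, 2.64% for Cdkn1a, 0.811% for Ccng1, 0.658% for Sesn2, 0.353% for Eda2r, 0.174% for Zmat3 and 0.121% for Mdm2.

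The strongest pair was negative. Trp53inp1 and Phlda3 had r = -0.63 (Spearman rho = -0.61, permutation p = 2e-05 and 3e-05) and the covariate fits gave adjusted p values of 1.8e-05 and 9.1e-07. With the 2 tumours most extreme in Trp53inp1 removed, r was -0.53. The relation was not even across the groups: r was -0.88 in the 10 PCA group 3/4 tumours and -0.05 in the 29 PCA group 1/2 tumours (rho of -0.36), among them Lynwt/wt tumour 41, which was low in both genes. It was -0.84 for IDs beginning 20, -0.47 for those beginning 21 and -0.43 with 1 mean per mouse (28 mice).

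Trp53inp1 rose with Bbc3, Sesn2 and Cdkn1a. With Bbc3 r was 0.61 (rho = 0.54, permutation p = 8e-05 and 4.6e-04), 0.62 with the 2 extreme tumours removed, 0.45 within PCA group 1/2, 0.44 within PCA group 3/4, and 0.64 and 0.63 within the ID sets 20 and 21. With Sesn2 r was 0.53 (rho = 0.54, permutation p = 5.8e-04 and 4.9e-04), 0.55 with the 2 extreme tumours removed, 0.37 within either PCA group and 0.55 and 0.52 within the ID sets. These pairs were thus positive in every subset examined, but weaker within each PCA group than over all tumours. With Cdkn1a r was 0.47 (rho = 0.33, permutation p = 0.0023 and 0.0374), but 0.13 within PCA group 1/2, 0.47 within PCA group 3/4, 0.23 for IDs beginning 20 and 0.67 for those beginning 21, and 0.36 with the 2 extreme tumours removed.

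Cdkn1a and Mdm2 had r = 0.46 (rho = 0.50, permutation p = 0.0037 and 0.0016), with 0.42 in PCA group 1/2, 0.72 in PCA group 3/4, 0.51 and 0.42 in the ID sets and 0.47 with the 2 extreme tumours removed. This pair did not pass in the edgeR fits (adjusted p of 0.068 and 0.142). Cdkn1a and Bbc3 had r = 0.44 (rho = 0.37, permutation p = 0.0038 and 0.019), with 0.11 and 0.61 in the ID sets 20 and 21. That pair passed with Bbc3 as the covariate (edgeR adjusted p = 0.0337) and not with Cdkn1a (0.0996). In all, 45 pairs were computed.

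**Figure D3:**
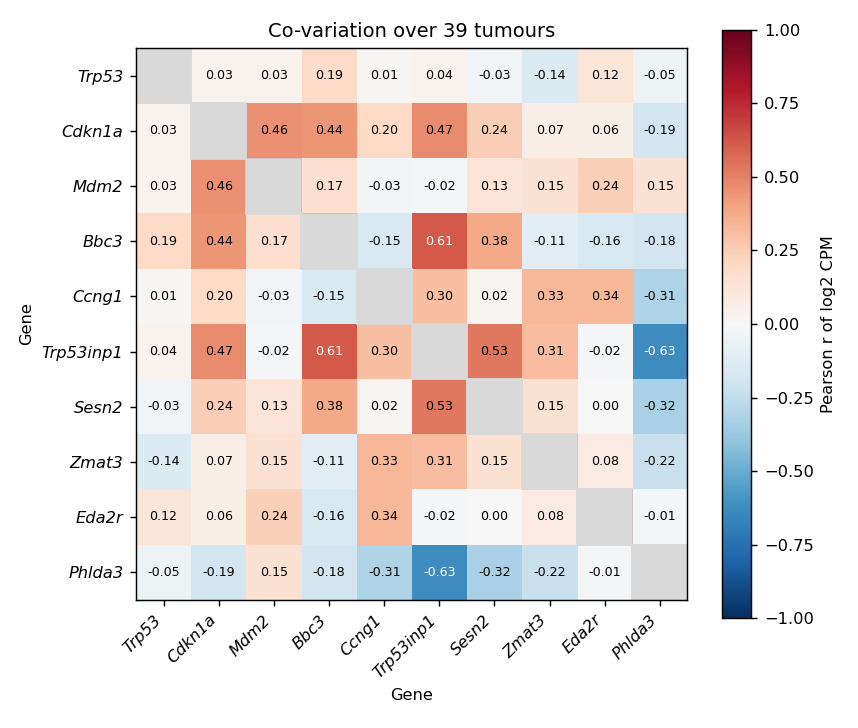
Pearson r of log2 CPM over the 39 tumours for the 45 pairs of members, from -1 (blue) to 1 (red). The Trp53 row is pale throughout (-0.14 to 0.19), and the strong values are those of Trp53inp1 with Bbc3 (0.61), Sesn2 (0.53) and Phlda3 (-0.63).

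**Figure D4:**
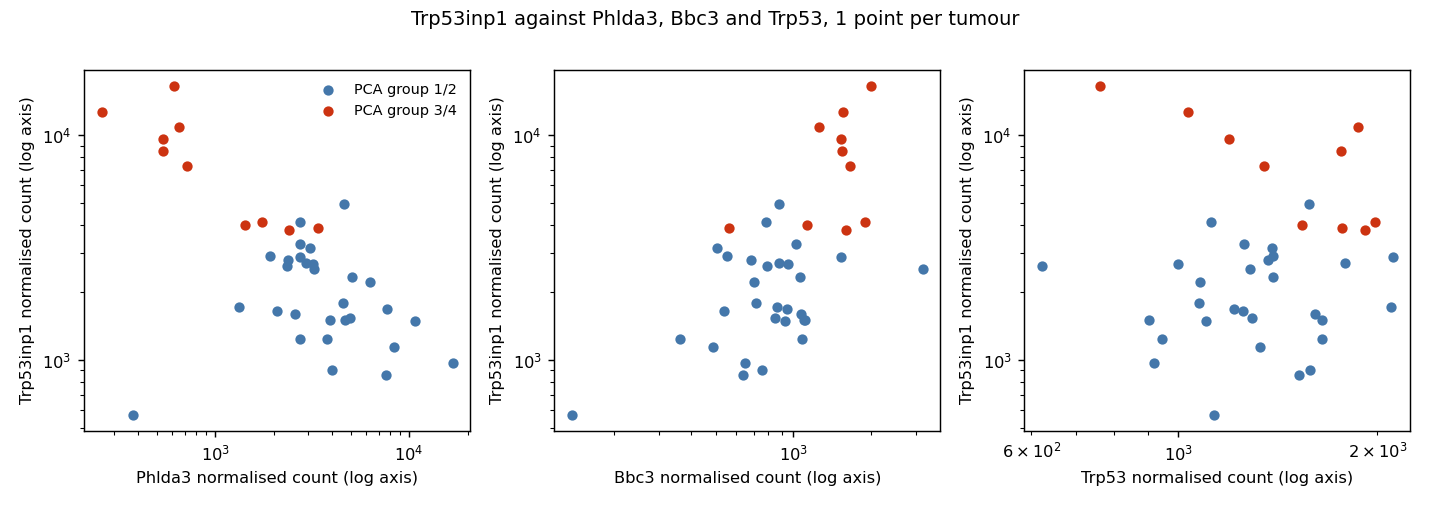
Normalised count of Trp53inp1 against Phlda3, Bbc3 and Trp53 (log axes), 1 point per tumour, coloured by PCA group. The PCA group 3/4 tumours with the lowest Phlda3 have the highest Trp53inp1, and Bbc3 rises with Trp53inp1. Trp53 has r of 0.04 over all 39 tumours and of -0.74 within the 10 of PCA group 3/4, the latter 1 of 45 unadjusted subset values.

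As a summary per tumour, the log2 levels of the 9 targets were turned into z-scores and averaged. The mean z-score was lowest in Lynwt/wt tumour 41 (-1.04) and highest in Lynfl/wt tumour 30 (0.78). It ran from -0.04 through 0.42 to 0.78 in PCA group 3/4 and from -1.04 through -0.06 to 0.61 in PCA group 1/2 tumours. The groups overlapped, and the 3 highest tumours, Lynfl/wt tumours 30 and 49 and Lynfl/fl tumour 54, were all of PCA group 3/4. The score followed Cdkn1a (r of 0.69) and Trp53inp1 (0.64), which are part of it, but neither Phlda3 (-0.18), also part of it, nor Trp53 (0.05).

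The genes outside the set whose levels were most like the score were Map1b (r of 0.81), Esyt1 (0.75), Csf2rb (0.75), Adgb (0.74), Osbpl8 (0.74), Unc13d (0.73), Csf2rb2 (0.73), Creg2 (0.73), Gpr35 (0.73) and Birc3 (0.73). Of all genes kept, 3.62% had an r of at least 0.5 with it. Map1b encodes a microtubule-associated protein best known from neurons, Csf2rb and Csf2rb2 encode receptor chains of myeloid cytokines, and Birc3 encodes an inhibitor of apoptosis. Csf2rb and Csf2rb2 are close copies, and the alignment kept only reads that mapped to 1 place, so both may be undercounted. Of the macrophage markers, 5 of 6 also had an r of at least 0.5 with the score, whose own r with the summed macrophage level was 0.60.

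Genes within 2 Mb of Trp53 co-varied with it more often than genes elsewhere, although most genes with a high r lay on other chromosomes. Of the 5 with the highest r over the 39 tumours, Arrb2 (0.68), Tnfsf12 (0.67) and Tnfsfm13 (0.65) were within 2 Mb of Trp53 on chromosome 11, while Gm10521 (0.66) and Ak8 (0.65) were on other chromosomes and hardly expressed (median normalised counts of 14.1 and 12.7). Tnfsf12 and the readthrough gene Tnfsfm13 overlap and cannot be separated here. Among the 123 genes within 2 Mb, 118 had a positive r with Trp53, the median was 0.29, and 12 (9.76%) reached 0.5. On the rest of chromosome 11 the median over 1386 genes was 0.03 and 18 (1.3%) reached 0.5, and on other chromosomes the median over 17471 genes was -0.01 and 144 (0.824%) did.

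Local correlation of this size was also seen around other genes. Among the 15895 genes with at least 20 neighbours within 2 Mb, the median of this local median r was 0.17, and 77.1% had a lower value than Trp53. Of the targets, Zmat3 had a local median of 0.48, above 98.5% of genes, and Bbc3 of 0.34, above 86.2%. Those of Cdkn1a (0.04) and Trp53inp1 (0.02) were above 18.2% and 14.4%. DNA copy number was not measured in these files, and its part in these values was not tested.

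**Figure D5:**
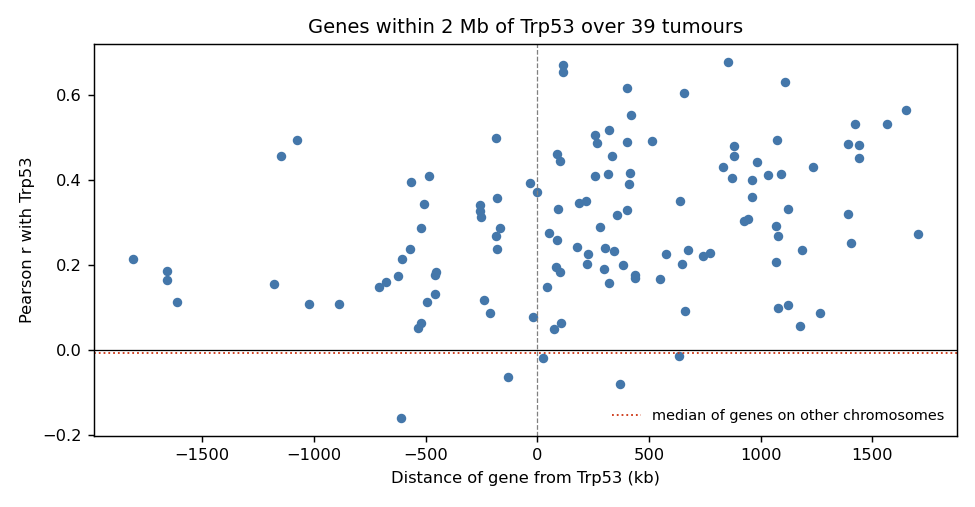
Pearson r with Trp53 over the 39 tumours for the 123 genes within 2 Mb (y axis) against their distance from the Trp53 start in kb (x axis). Nearly all points (118) lie above 0, and the dotted line is the median of genes on other chromosomes (-0.01).

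Other genes of the pathway were read from lists by role, each beside the 12.2% of all genes called higher and 10.5% called lower in PCA group 3/4 tumours. Of 10 further targets in cell death, 4 were higher and 0 lower in PCA group 3/4 tumours. Pmaip1, which encodes the BH3-only protein NOXA, had a log2 fold change of 3.74 (SE 0.40, edgeR adjusted p = 2.5e-09), and its normalised count ran from 106 to 45851 over the 39 tumours. The death receptor gene Fas was higher by 2.57 (SE 0.31, adjusted p = 3.6e-08), Pidd1 by 0.69 (adjusted p = 0.0202) and Apaf1, the core of the apoptosome, by 0.50 (adjusted p = 0.0249), while 6, among them Bax, did not pass. The median log2 fold change of the list was 0.19, beside -0.05 over all genes.

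Of 14 targets in arrest and repair, 2 were higher and 2 lower in PCA group 3/4 tumours (median log2 fold change 0.07), a share near that of all genes (22.6% called), so the list as a whole did not stand out. Rprm, an inhibitor of the G2 to M transition, was higher by 6.34 (SE 0.76, edgeR adjusted p = 4.1e-08) from a median normalised count of only 9.82 over all tumours, with 0 in the lowest, and Gadd45a, which acts in arrest and repair, by 1.42 (adjusted p = 0.0136). The kinase gene Plk2 was lower by 2.03 on the log2 scale (log2 fold change -2.03, edgeR adjusted p = 7.5e-05), as was the DNA repair gene Xpc (-0.57, adjusted p = 0.00304). Among 18 targets in metabolism and signalling, 2 were higher, near the 12.2% of all genes, and 4 lower, beside 10.5% (median log2 fold change 0.15). The stress cytokine gene Gdf15 (2.02, edgeR adjusted p = 0.00398) and the peptide transporter gene Tap1 (1.27, adjusted p = 0.00422) were higher. The long non-coding RNA Pvt1 (-1.33, edgeR adjusted p = 0.00109) and the receptor kinase gene Epha2 (-1.92, adjusted p = 0.00216) were among those lower.

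Among 17 regulators of p53, 1 was higher in PCA group 3/4 tumours and 0 lower, fewer than the 22.6% called over all genes would give. This was Hipk2, a kinase that phosphorylates p53 (1.09, SE 0.26, edgeR adjusted p = 0.00186), whose level had an r of 0.70 with the score of the 9 targets. Pmaip1 had the same r of 0.70, and Fas had 0.60. No other gene of the regulator and target lists reached 0.5, a level that 3.62% of all genes reached. The median r with the score was -0.03 for the regulators and 0.29 for the targets in cell death. It was 0.10 for those in arrest and repair and 0.07 for those in metabolism and signalling. Psrc1 (-0.51) and Plk2 (-0.48) went the other way. Between Lyn-high and Lyn-low tumours, where 7.65% of all genes were called, 0 of 16 regulators tested passed, 0 of 13 targets in arrest and repair, 1 of 10 in cell death (Pmaip1, 2.24, edgeR adjusted p = 0.00674) and 1 of 18 in metabolism and signalling (Tgfa, -1.11, adjusted p = 0.0446). The single calls in the last pair of lists are near that background. Of 16 proliferation genes, 1 (Mybl2, 0.68, edgeR adjusted p = 0.0152) was called between PCA groups, beside 22.6% of genes, and the median log2 fold change was 0.04. Between Lyn-high and Lyn-low tumours 1 of 16 was called (Ccnb2, -0.74, edgeR adjusted p = 0.0207), beside 7.65%, and the median log2 fold change was -0.33, beside 0.03 over all genes.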

How the data were processed

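RNAseq of 39 mouse mammary tumours was analysed from the raw read counts per gene deposited by the authors. The authors aligned the reads to GRCm38 with STAR 2.5.1b and counted them with featureCounts 1.5.1, on Gencode vM17, from a directional poly(A) library. Of counts between 1 and 100 in the deposited table, 75.8% were even, so counts do not equal independent molecules and intervals from counting error were not used. Columns of normalised values and of the authors' own comparisons (fold changes and p-values) were not used. Depth was 50490044 to 83122719 counts per tumour.

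Groups followed the labels. The members and gene lists were chosen with earlier results of these data known. Tests were made with edgeR 4.0.16 in R 4.3.3 (filterByExpr, TMM, quasi-likelihood F test, Benjamini-Hochberg over all genes kept) with a call at an adjusted p under 0.05. The 3 genotypes shared 1 fit. Log2 CPM (prior count 0.5) entered the correlations, with 100000 permutations (smallest p possible 1e-05). The text names all 10 members, the 5 genes most like Trp53, the 10 most like the target score, and up to 4 of each pathway list by smallest p. Scripts were tested on simulated counts. Tumours of 1 mouse were treated as separate samples. Counts summed per mouse within each group, and the mouse as a block, were alternatives. So were DESeq2 1.42.0, other scaling, no filter, covariates and leaving out each tumour. The mouse is from the database IDs in the labels, and over genes the deviations of same-mouse tumours in different groups from their group means had r of -0.04 to 0.14. Gene positions, exon lengths and overlaps are from Gencode vM21 (GRCm38).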

Additional observations from a re-analysis of the deposited data

How the results depend on the processing

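Tumours of different groups share no replicate number, but some share a mouse, and the paired fits took the mouse as a replicate block. No paired analysis was possible between genotypes because each mouse has 1 genotype. With the mouse block the members called fell from 3 to 0 in the Lyn comparison and from 4 to 1 in the PCA comparison, and it turned the sign of Cdkn1a (-0.43), Mdm2 (-0.31) and Bbc3 (-0.18) in the former and of Trp53 (-0.088) in the latter. The 10 members were refitted under each alternative in 5 comparisons. Macrophage level as a covariate, the ID subsets and the mouse block were added after seeing the data, and with them groups are small or share the covariate's direction. Of 470 log2 fold changes outside the leave-one-out fits, 414 kept their side of the threshold and either kept direction or, where not called, moved by less than 1 SE. In Lyn-high against Lyn-low tumours 3 members were called, 1 with DESeq2 size factors, with no low-count filter, per mouse or with the ID as covariate, 0 with macrophage level or within IDs 20 or 21, and 1 to 3 without 1 tumour. In PCA group 3/4 against 1/2, 4 were called, 2 with macrophage level or within ID 20, and 3 to 5 without 1 tumour. Apart from the mouse block, the share of all genes called under these alternatives was not computed. Counts summed per mouse within each PCA group added Ccng1 (edgeR adjusted p = 0.0460) and Sesn2 (adjusted p = 0.0332). In that fit the 4 mice with tumours of both PCA groups entered once in each group, unpaired. Leaving out 1 tumour, no member was called by genotype (0 to 0). Of the pairs of members, 4 were called in both covariate fits, and 2 with the luminal level in the model. Pairs with an r of at least 0.5 or of -0.5 or less numbered 3, against 7 within ID 20, 5 within ID 21, 0 within PCA group 1/2 and 7 within PCA group 3/4.

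Log2 fold changes that turned sign by at least 1 SE were, with macrophage level, Cdkn1a (0.39) in Lynfl/fl against Lynwt/wt, Ccng1 (0.0092) and Trp53inp1 (0.03) in Lynfl/fl against Lynfl/wt, Cdkn1a (-1.30), Ccng1 (-0.49) and Trp53inp1 (-0.061) in the Lyn comparison, and Trp53 (-0.17) and Ccng1 (-0.031) in the PCA comparison. With luminal level it was Trp53inp1 (-0.28) in Lynfl/fl against Lynwt/wt. Within ID 20 they were Trp53inp1 (-0.82) in Lynfl/fl against Lynwt/wt, Cdkn1a (-0.46) and Zmat3 (-0.0015) in Lynfl/wt against Lynwt/wt, Mdm2 (0.16) in Lynfl/fl against Lynfl/wt, and Mdm2 (-0.13) and Eda2r (-0.31) in the Lyn comparison. Within ID 21 they were Cdkn1a (0.93) in Lynfl/fl against Lynwt/wt, Trp53 (-0.18), Mdm2 (0.12) and Phlda3 (0.053) in Lynfl/wt against Lynwt/wt, Cdkn1a (-0.83) in the Lyn comparison, and Trp53 (-0.34) and Mdm2 (0.32) in the PCA comparison. The cause was not tested. Depth limits Eda2r most, with no count in 4 tumours.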
